A study of Mus musculus with 15 samples.

Results

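The transcription factor NRF2 (Nfe2l2), its repressor KEAP1 (Keap1) and 8 antioxidant genes were followed by RNA sequencing in the mouse trigeminal ganglion (TG), the ganglion that holds the cell bodies of the corneal sensory nerves. The 10 genes were chosen by name, as the regulators and well-known targets or partners of the NRF2 response, and matched 10 of the 55573 genes of the count table. All 10 passed the filter on low counts, which left 16567 genes to test. The 8 are Hmox1, Nqo1, Gclc, Gclm, Txnrd1, Srxn1, Prdx1 and Gpx4.

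The samples were the right TG of male CD1 mice, 10 weeks old in the study's methods, whose right cornea had been injured by removing the central epithelium and anterior stroma within a 2-mm circle. Eyes then received vehicle, RvD6-standard or RvD6-isomer 3 times a day, and the ganglia were taken on day 12 (5 samples per group). RvD6-standard is resolvin D6, a lipid mediator made from docosahexaenoic acid. RvD6-isomer is the stereoisomer of it that the study isolated from tears and the medium of cultured corneas and calls RvD6si. The lipid dose is not given in the sources used here. The vehicle mice were injured as well, so no group shows an uninjured ganglion. Each value is for a whole ganglion, a mixture of neurons, satellite glia, Schwann cells and other cells, in which fewer cells of a type and less RNA per cell cannot be told apart. The labels number the samples 1 to 15 without naming the animals, and p-values measure the spread between these samples.

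In unstressed cells KEAP1 holds NRF2 for ubiquitination by a CUL3 ligase and so keeps it scarce. Oxidants and electrophiles modify cysteines of KEAP1, NRF2 then accumulates, enters the nucleus, pairs with a small MAF protein and binds antioxidant response elements near genes for glutathione synthesis, thioredoxin reduction, quinone reduction and haem breakdown. Because this control acts mostly on the NRF2 protein, the mRNA levels of Nfe2l2 and Keap1 do not measure its activity, and the target mRNAs are the usual readout.

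The core letters of that element, TGACNNNGC, were searched on both strands from 250 bases before to 50 bases after each RefSeq start (GRCm38.p6), to show which of the genes carry them next to a start. Entries were found for 8 of the 10 genes, and 5 of the 8 held a match. Of all 32851 RefSeq windows searched 12.39% held one, and of all 27025 genes 13.99%. The matches are shown with 10 bases on each side, along the strand of the gene, with the matched letters in capitals.
Nfe2l2: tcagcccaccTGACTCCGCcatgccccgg
Gclm: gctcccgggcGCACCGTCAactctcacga
Txnrd1: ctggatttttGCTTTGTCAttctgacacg
Srxn1: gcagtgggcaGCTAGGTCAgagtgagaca
Prdx1: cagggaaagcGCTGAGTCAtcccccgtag
The Nfe2l2 window is chr2:75704885-75704913 on the minus strand, its first matched base lies at position -240 from the start, and the annotation has an exon of the plus-strand gene E030042O20Rik there. The other windows read along the plus strand and hold the reverse complement of the motif. Gclm has it at chr3:122245413-122245441 (position -134) and Prdx1 at chr4:116685456-116685484 (position -133), both outside annotated genes. Txnrd1 has it at chr10:82859104-82859132, at position -92 from one of its starts and in an intron of the longer Txnrd1 transcripts. In Srxn1 the window chr2:152105542-152105570 begins after the start and lies in the untranslated part of the first exon. The Prdx1 match also contains the AP-1 letters TGAGTCA. A match describes these letters only and is no evidence of binding in the ganglion.

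Total counts per sample ranged from 4125962 to 9903396 (median 7756538). The defining markers of a sensory ganglion were abundant, with 12 neuron markers summing to 7199 to 14026 normalised counts (CPM, scaled to library size), 6 satellite glia markers to 4645 to 8219 CPM, and 6 myelinating Schwann cell markers to 11683 to 21256 CPM. The satellite glia sum was 6845 to 8219 CPM with vehicle, 5016 to 6693 CPM with RvD6-standard and 4645 to 6654 CPM with RvD6-isomer, so that every treated sample lay below every vehicle sample. Single markers were split, with 3 of the 6 estimates above 0 and 3 below 0 with each lipid against vehicle. At an unadjusted p below 0.05 by edgeR, 2 were lower with RvD6-isomer and 1 with RvD6-standard. Markers of blood and muscle cells also differed. The summed level of 10 erythroid markers was 2383 to 5076 CPM in vehicle samples, 5759 to 10660 CPM in RvD6-standard samples, and 936 to 12041 CPM in RvD6-isomer samples, where sample 15 held the highest value. The 9 granulocyte precursor markers summed to 110.2 to 590.4 CPM, 692 to 2243 CPM and 54.4 to 1967 CPM in the same order, and sample 15 was again the highest of the RvD6-isomer group. The 9 skeletal muscle markers summed to 87.2 to 2465 CPM in RvD6-standard samples, 17.8 to 154 CPM in vehicle samples and 12.0 to 36.3 CPM in RvD6-isomer samples. All 9 were lower with RvD6-isomer than with RvD6-standard, 6 of them at an adjusted p below 0.05 by edgeR, beside 0.235% of all genes. All 6 fibroblast markers had estimates above 0 with RvD6-standard against vehicle, 3 of them at an unadjusted p below 0.05 by edgeR. All 6 were lower with RvD6-isomer than with RvD6-standard, again 3 at that threshold. The 6 pituitary markers summed to 9.97 to 3745 CPM with vehicle, 226 to 2299.5 CPM with RvD6-standard and 19.9 to 657 CPM with RvD6-isomer. Vehicle sample 3 held the highest pituitary sum. Sample 15 was also the shallowest library. All 12 neuron markers had lower estimates with RvD6-standard than with vehicle, 6 of them at an unadjusted p below 0.05 and none after adjustment. The part of these cells in the results below was not tested.

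**Figure D1:**
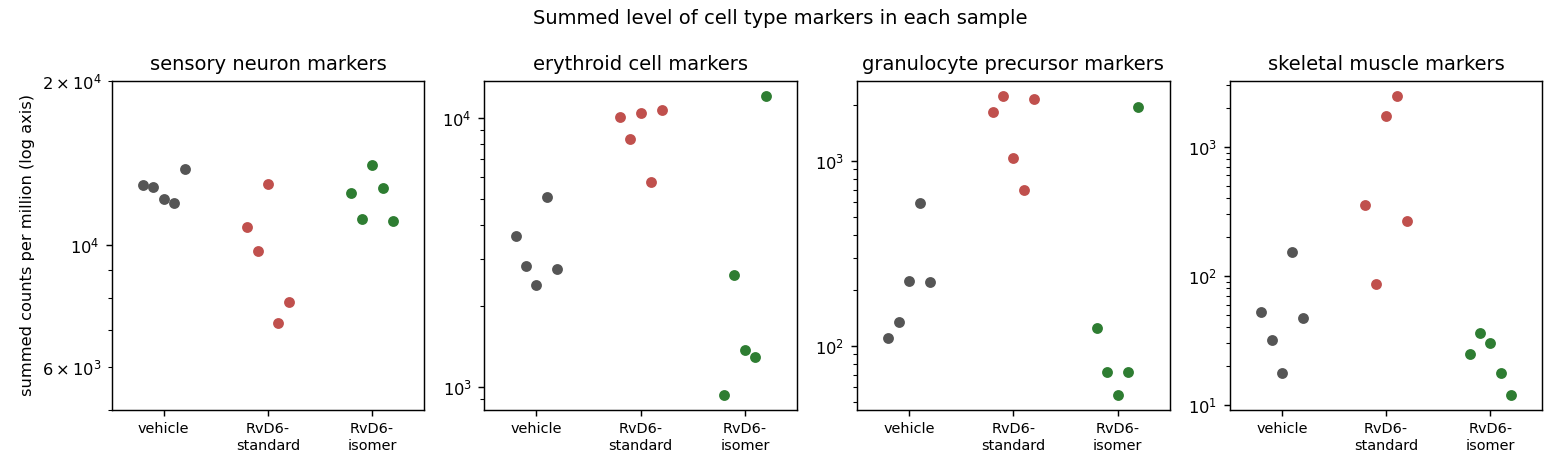
Summed CPM of the marker genes of 4 cell types in each of the 15 samples, on log axes, by group. Erythroid and granulocyte precursor markers are high in all 5 RvD6-standard samples and in 1 RvD6-isomer sample, and muscle markers are above every vehicle sample in 4 of 5 RvD6-standard samples.

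None of the 10 genes passed an adjusted p of 0.05 in any comparison by the quasi-likelihood test of edgeR with Benjamini-Hochberg adjustment over 16567 genes. In RvD6-isomer against vehicle 0 of 10 passed, beside 0.670% of all genes. In RvD6-standard against vehicle 0 of 10 passed, beside 0 of all genes, and in RvD6-isomer against RvD6-standard 0 of 10, beside 0.235%. By DESeq2, 1 of the 10 passed in the first comparison (Prdx1, lower, adjusted p = 0.0377), beside 8.13% of the genes to which DESeq2 gave an adjusted p. It called none with RvD6-standard against vehicle or between the lipids, beside 1.92% and 0.936%. At an unadjusted p below 0.05, edgeR gave 2 of 10 with RvD6-isomer against vehicle (Prdx1 and Nfe2l2, both lower), where 7.30% of all genes were lower at that threshold. It gave 1 of 10 with RvD6-standard against vehicle (Srxn1, lower), beside 5.99%. RvD6-isomer against RvD6-standard gave Srxn1 as higher and Prdx1 as lower, beside 8.82% of all genes, of which 4.18% were higher and 4.64% lower. No gene of the 10 had groups that did not overlap, beside 4.91%, 3.77% and 1.81% of all genes in the 3 comparisons. Both comparisons with vehicle use the same 5 vehicle samples.

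**Figure D2:**
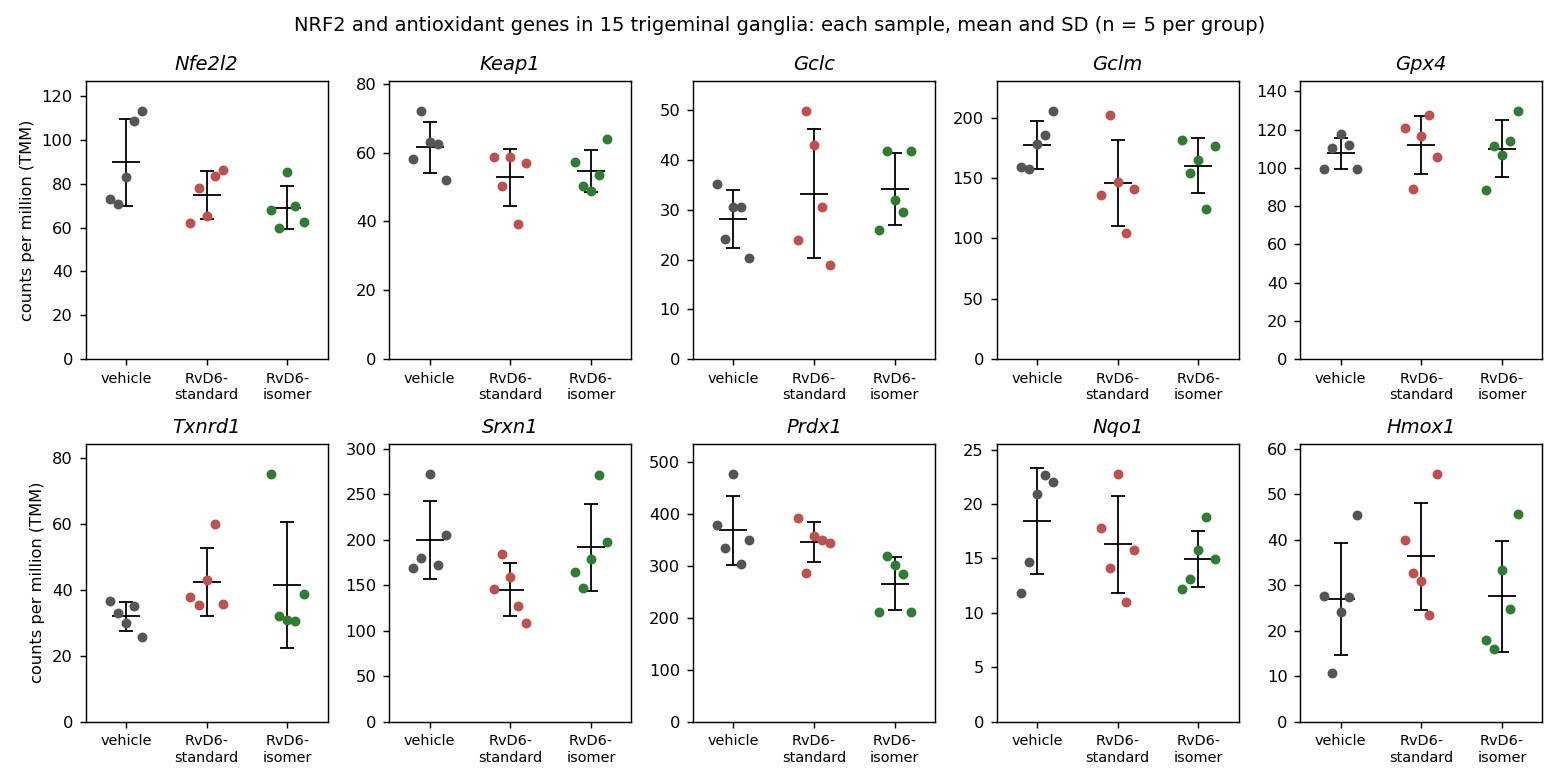
Normalised level (CPM, linear axes from 0) of each of the 10 genes in each sample, with the mean and SD of 5 samples per group. The groups overlap for every gene, Prdx1 lies lowest in the RvD6-isomer group, and 1 RvD6-isomer sample stands at 75.4 CPM for Txnrd1.

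The median log2 fold change of the 10 genes was -0.10 for RvD6-isomer against vehicle, -0.14 for RvD6-standard against vehicle and -0.03 for RvD6-isomer against RvD6-standard, beside 0.02, 0.02 and -0.00 over all genes tested. In each of the 3 comparisons 6 of the 10 estimates were below 0. The estimates ran from -0.47 to 0.37, from -0.46 to 0.43 and from -0.41 to 0.40, respectively.

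**Figure D3:**
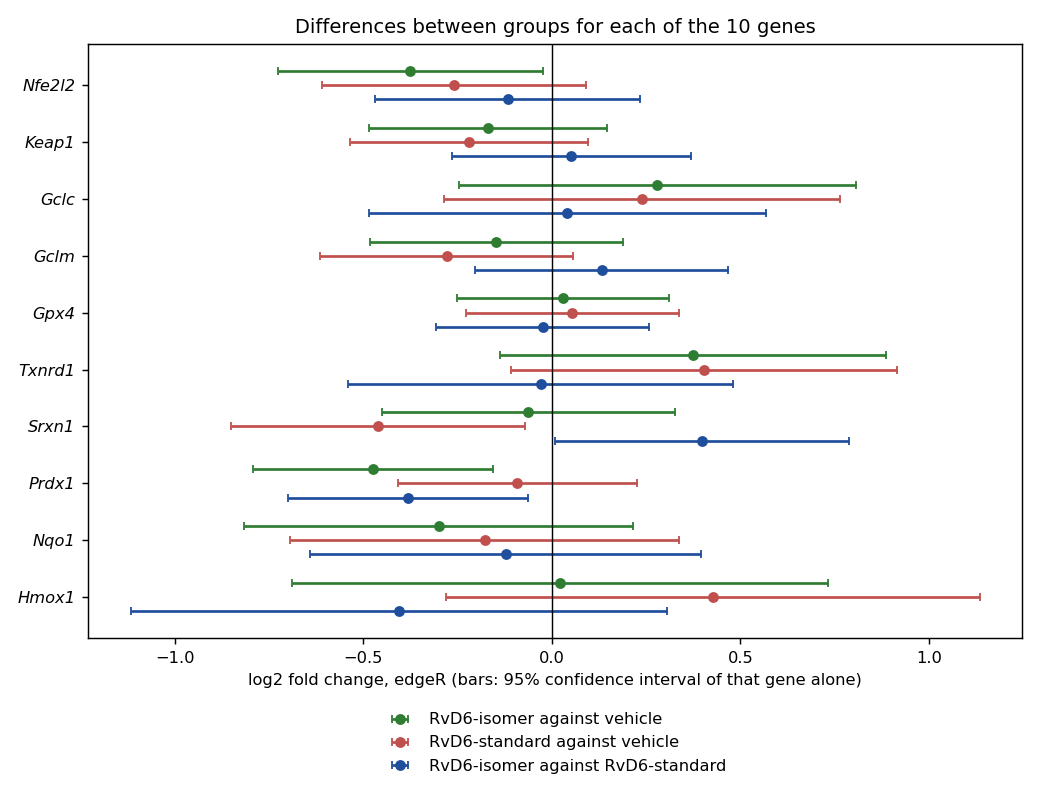
Log2 fold change of each gene in the 3 comparisons with its 95% confidence interval, not adjusted for the number of genes. For RvD6-isomer against vehicle the intervals of Prdx1 and Nfe2l2 lie below 0, and the interval of Hmox1 is the widest in each comparison.

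Compared per kilobase of exon, the genes spanned a wide range of mRNA levels in the vehicle TG. Prdx1 was the most abundant, with 121 ± 21.9 CPM per kb (SD, n = 5), followed by Srxn1 (70.9 ± 15.3), Gpx4 (62.5 ± 4.69) and Gclm (28.2 ± 3.18). Below them came Nfe2l2 (23.6 ± 5.28), Hmox1 (15.5 ± 7.05), Keap1 (13.1 ± 1.57), Nqo1 (11.9 ± 3.15), Gclc (7.48 ± 1.55) and Txnrd1 (4.52 ± 0.619). Ranges of neighbours in this order were separate only between Prdx1 and Srxn1, between Gpx4 and Gclm, and between Gclc and Txnrd1; the other neighbours overlapped. The sources used here state no correction for length-dependent recovery, so the order is approximate.

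Nfe2l2 encodes NRF2 itself (ENSMUSG00000015839.6, chr2:75675513-75704641 in GRCm38, minus strand). It measured 72.9, 70.7, 83.2, 109 and 113 CPM in the vehicle samples, 61.9, 78.0, 65.3, 83.5 and 86.3 CPM with RvD6-standard, and 67.9, 59.7, 85.6, 69.8 and 62.8 CPM with RvD6-isomer. Of the 5 RvD6-isomer samples, 4 lay below every vehicle sample, and the fifth lay among them. The difference from vehicle was -0.38 (log2, SE 0.17, 95% interval -0.73 to -0.02), with an adjusted p of 0.275 by edgeR (unadjusted 0.0373). RvD6-standard against vehicle gave -0.26 (interval -0.61 to 0.09), and the lipids differed from each other by -0.12 (interval -0.47 to 0.23). The unadjusted p for RvD6-isomer stayed below 0.05 in 9 of 15 fits that left out a sample, and the estimate was nearest 0, at -0.27, without vehicle sample 5.

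Keap1 (ENSMUSG00000003308.15, chr9:21229730-21239361, minus strand) encodes the adaptor that presents NRF2 to the CUL3 ligase. Its levels were 58.1, 72.2, 63.1, 62.4 and 52.1 CPM with vehicle, 58.8, 50.2, 58.8, 39.2 and 56.9 CPM with RvD6-standard, and 57.2, 50.2, 48.9, 53.5 and 64.1 CPM with RvD6-isomer. All 5 RvD6-standard samples and 4 of 5 RvD6-isomer samples were below the vehicle median, and the groups overlapped. The log2 differences from vehicle were -0.22 (interval -0.54 to 0.10) and -0.17 (interval -0.49 to 0.15). An antisense gene, Gm16754, shares 10.9% of the exon bases of Keap1, and the counting did not use strand. Keap1 was among the steadiest genes, with a within-group SD of 0.20 on the log2 scale, lower than in all but 3.56% of genes.

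Gclc and Gclm encode the catalytic and modifier subunits of glutamate-cysteine ligase, the rate-limiting enzyme of glutathione synthesis. Gclc (ENSMUSG00000032350.9, chr9:77754535-77794485, plus strand) measured 35.1, 24.1, 30.5, 30.6 and 20.4 CPM with vehicle, 24.0, 49.9, 43.1, 30.5 and 18.9 CPM with RvD6-standard, and 26.0, 41.8, 31.9, 29.5 and 41.9 CPM with RvD6-isomer. The RvD6-standard samples held both the highest and the lowest value of the 15. The log2 differences from vehicle were 0.24 (interval -0.29 to 0.76) with RvD6-standard and 0.28 (interval -0.25 to 0.81) with RvD6-isomer, and the former was 0.04 without RvD6-standard sample 7. Gclm (ENSMUSG00000028124.15, chr3:122245557-122270732, plus strand) measured 159, 158, 178, 186 and 206 CPM with vehicle, 136, 202, 147, 104 and 141 CPM with RvD6-standard, and 181, 154, 165, 124 and 176 CPM with RvD6-isomer. With RvD6-standard 4 of 5 samples lay below every vehicle sample and the fifth was near the top of the vehicle range. Its log2 differences from vehicle were -0.28 (interval -0.62 to 0.06) and -0.15 (interval -0.48 to 0.19). The 2 subunits thus had estimates of opposite sign with each lipid, and no interval excluded 0. With the trend on gene length removed, the Gclm estimate with RvD6-standard was -0.40, at an unadjusted p below 0.05 by edgeR. With RvD6-isomer it was then -0.29. Gm17494, on the opposite strand, shares 4.7% of the exon bases of Gclm, and the same-strand pseudogene Gm6061 shares 3.9%.

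Gpx4 (ENSMUSG00000075706.10, chr10:80047166-80056439, plus strand) encodes the glutathione peroxidase that reduces lipid hydroperoxides in membranes. It varied least of the 10, with 99.3, 110.3, 117, 112 and 99.4 CPM in vehicle samples, 121, 89.1, 117, 128 and 106 CPM with RvD6-standard and 88.2, 111, 107, 114 and 129.8 CPM with RvD6-isomer. The highest sample was 1.47 times the lowest, and only 1.88% of genes had a smaller within-group SD than its 0.18. Its log2 differences from vehicle were 0.05 (interval -0.23 to 0.34) with RvD6-standard and 0.03 (interval -0.25 to 0.31) with RvD6-isomer. Reads that also align to Gpx4 pseudogenes were not counted.

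Prdx1, Srxn1 and Txnrd1 act in one chain. Prdx1 encodes an abundant cytosolic peroxiredoxin that reduces hydrogen peroxide, Srxn1 encodes sulfiredoxin, which repairs over-oxidised peroxiredoxins, and Txnrd1 encodes the cytosolic thioredoxin reductase that supplies the electrons through thioredoxin.

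Prdx1 (ENSMUSG00000028691.12, chr4:116685544-116700822, plus strand) gave the lowest unadjusted p of the 10 genes in both comparisons that involve RvD6-isomer. It measured 379, 334, 478, 304 and 349.7 CPM with vehicle, 392, 285, 359, 351 and 344 CPM with RvD6-standard, and 211, 319, 301, 285 and 211 CPM with RvD6-isomer. With RvD6-isomer 4 of 5 samples lay below every vehicle sample, and sample 12, at 319 CPM, lay above 1 of them. The mean was 265 ± 51.1 CPM with RvD6-isomer against 369 ± 66.5 CPM with vehicle and 346 ± 38.5 CPM with RvD6-standard (SD, n = 5 each). The log2 difference from vehicle was -0.47 (SE 0.15, interval -0.79 to -0.16), with an adjusted p of 0.126 by edgeR (unadjusted 0.00566). Its adjusted p was 0.0908 to 0.324 over the 15 fits that left out a sample, and the unadjusted p was below 0.05 in all 15. The estimate was nearest 0, at -0.36, without vehicle sample 3, which held the highest Prdx1 level of the 15 samples. Across the other 6 alternatives the adjusted p ran from 0.0377, by DESeq2, to 0.241. With RvD6-standard the difference from vehicle was -0.09 (interval -0.41 to 0.22). RvD6-isomer against RvD6-standard gave -0.38 (interval -0.70 to -0.06), with an adjusted p of 0.451 by edgeR (unadjusted 0.0210).

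Srxn1 (ENSMUSG00000032802.8, chr2:152105516-152111376, plus strand) had its lowest values under RvD6-standard. It measured 169, 180.2, 273, 173 and 205 CPM with vehicle, 146, 185, 159, 128 and 109 CPM with RvD6-standard, and 165, 147, 179, 271 and 197 CPM with RvD6-isomer. With RvD6-standard 4 of 5 samples were below every vehicle sample, and with RvD6-isomer 2 of 5 were, while the other 3 lay inside the vehicle range. The log2 difference of RvD6-standard from vehicle was -0.46 (SE 0.19, interval -0.85 to -0.07), with an adjusted p of 0.297 by edgeR (unadjusted 0.0229). This estimate was -0.32 without vehicle sample 3, which held the highest Srxn1 level of the 15 samples. Its unadjusted p was below 0.05 in 12 of 15 fits that left out a sample. RvD6-isomer differed from vehicle by -0.06 (interval -0.45 to 0.33) and from RvD6-standard by 0.40 (interval 0.01 to 0.79), with an adjusted p of 0.548 by edgeR (unadjusted 0.0454). That unadjusted p was below 0.05 in 8 of 15 fits that left out a sample, and the estimate was 0.24 without RvD6-isomer sample 14. All 5 RvD6-isomer samples were above the RvD6-standard median. The estimate for RvD6-isomer against vehicle was 0.08 without vehicle sample 3 and -0.22 without RvD6-isomer sample 14.

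Txnrd1 (ENSMUSG00000020250.10, chr10:82833951-82897712, plus strand) measured 36.7, 32.9, 29.9, 35.0 and 25.7 CPM with vehicle, 38.0, 35.3, 43.1, 60.2 and 35.8 CPM with RvD6-standard, and 75.4, 32.2, 31.0, 30.6 and 38.7 CPM with RvD6-isomer. All 5 RvD6-standard samples were above the vehicle median and 3 were above every vehicle sample. The log2 difference from vehicle was 0.40 with RvD6-standard (interval -0.11 to 0.91) and 0.37 with RvD6-isomer (interval -0.14 to 0.89). These similar estimates rested on different samples. The RvD6-isomer estimate was 0.05 without sample 11, which held the 75.4 CPM, while the RvD6-standard estimate was 0.24 without sample 9, the highest of its group. Without RvD6-isomer sample 11 the difference between the lipids was -0.36, beside -0.03 with it.

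Nqo1 (ENSMUSG00000003849.8, chr8:107388225-107403206, minus strand) encodes a quinone reductase and is a standard marker of NRF2 activity. It measured 11.8, 14.7, 20.955, 22.7 and 22.02 CPM with vehicle, 17.8, 14.1, 22.8, 11.0 and 15.7 CPM with RvD6-standard, and 12.2, 13.1, 15.8, 18.8 and 15.0 CPM with RvD6-isomer. All 5 RvD6-isomer samples lay below the vehicle median but inside the vehicle range. The log2 differences from vehicle were -0.18 (interval -0.69 to 0.34) with RvD6-standard and -0.30 (interval -0.82 to 0.22) with RvD6-isomer. These values rest on 64 to 192 reads per sample, the fewest of the 10 genes.

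Hmox1 (ENSMUSG00000005413.8, chr8:75093621-75100589, plus strand) encodes the inducible haem oxygenase and is also expressed by macrophages that break down haemoglobin. Its levels were 27.6, 10.8, 24.2, 27.3 and 45.4 CPM with vehicle, 40.0, 32.8, 31.0, 23.5 and 54.6 CPM with RvD6-standard, and 18.1, 15.9, 33.4, 24.9 and 45.8 CPM with RvD6-isomer. With RvD6-standard 4 of 5 samples exceeded the vehicle median. Hmox1 was the most variable of the 10, with a highest sample 5.05 times the lowest and a within-group SD of 0.61 on the log2 scale, beside 0.47 for the median gene. Its log2 difference from vehicle was 0.43 (interval -0.28 to 1.14) with RvD6-standard and 0.02 (interval -0.69 to 0.73) with RvD6-isomer, and the lipids differed by -0.41 (interval -1.12 to 0.31). The RvD6-isomer estimate moved to -0.23 without RvD6-isomer sample 15, and to 0.29 without vehicle sample 5. Sample 15 had both the highest Hmox1 level and the highest erythroid marker sum of its group, as did sample 10 in the RvD6-standard group. In the vehicle group the highest Hmox1 level was in sample 5, with an erythroid sum of 2754 CPM. The highest vehicle sum, 5076 CPM, was in sample 4, with 27.3 CPM of Hmox1. All 5 RvD6-standard samples exceeded every vehicle sample in that sum. The 8 macrophage markers summed to 76.3 to 118 CPM with vehicle, 78.1 to 148 CPM with RvD6-standard and 71.2 to 133 CPM with RvD6-isomer. Against vehicle 5 of the 8 had estimates above 0 with RvD6-standard and 4 with RvD6-isomer. At an unadjusted p below 0.05 by edgeR, 3 were higher with RvD6-standard, and 1 was higher and 1 lower with RvD6-isomer. Between the lipids 3 were lower with RvD6-isomer, and none passed after adjustment in any comparison. The part of erythroid cells and of macrophages in the Hmox1 values was not tested.

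**Figure D4:**
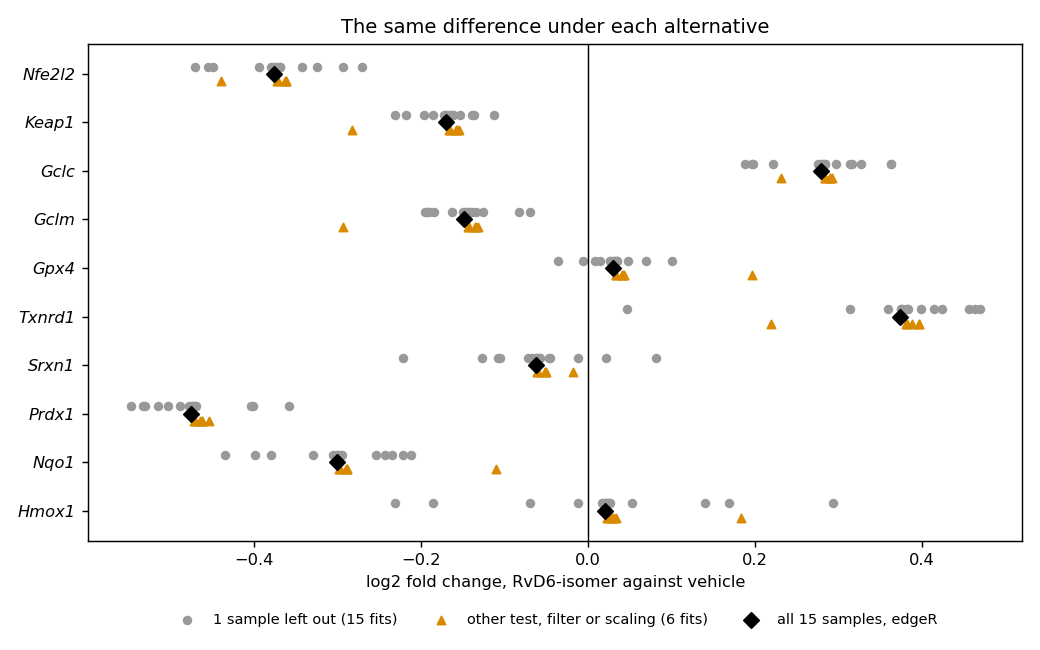
Log2 fold change of RvD6-isomer against vehicle for each gene with all samples (diamond), with each sample left out (grey circles) and under 6 other tests, filters or scalings (triangles). Prdx1 and Nfe2l2 stay below 0 throughout, Txnrd1 drops to 0.05 without 1 sample, and Hmox1, Srxn1 and Gpx4 lie on both sides of 0.

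A wider list of 78 genes of the pathway, drawn up by role, gave 77 that could be tested. None passed an adjusted p of 0.05 by edgeR in any comparison. By DESeq2 7 passed with RvD6-isomer against vehicle, 1 with RvD6-standard against vehicle and none between the lipids. Of the genes to which DESeq2 gave an adjusted p, 8.13%, 1.92% and 0.936% passed. The 7 are 8.97% of the 78, which all had an unadjusted p by DESeq2. The 8.13% is 920 of the 11321 genes with an adjusted p, while 32491 genes had an unadjusted p. The bases of these shares thus differ. At an unadjusted p below 0.05 by edgeR, 7 of the 77 were higher and 12 lower with RvD6-isomer against vehicle. This is 9.09% and 15.6% beside 8.69% and 7.30% of all genes. With RvD6-standard against vehicle 3 were higher and 10 lower, or 3.90% and 13.0% beside 7.63% and 5.99%. Between the lipids 5 were higher and 5 lower, or 6.49% each beside 4.18% and 4.64%. The groups did not overlap for 5 of the 77 with RvD6-isomer against vehicle (1 higher and 4 lower, where 2.45% and 2.46% of all genes did so). They did not overlap for 2 with RvD6-standard against vehicle, both lower (all genes, 2.15% higher and 1.62% lower), and for none between the lipids (0.712% and 1.10%). The median log2 fold change of the list was -0.10, -0.08 and -0.02 in the 3 comparisons.

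**Figure D5:**
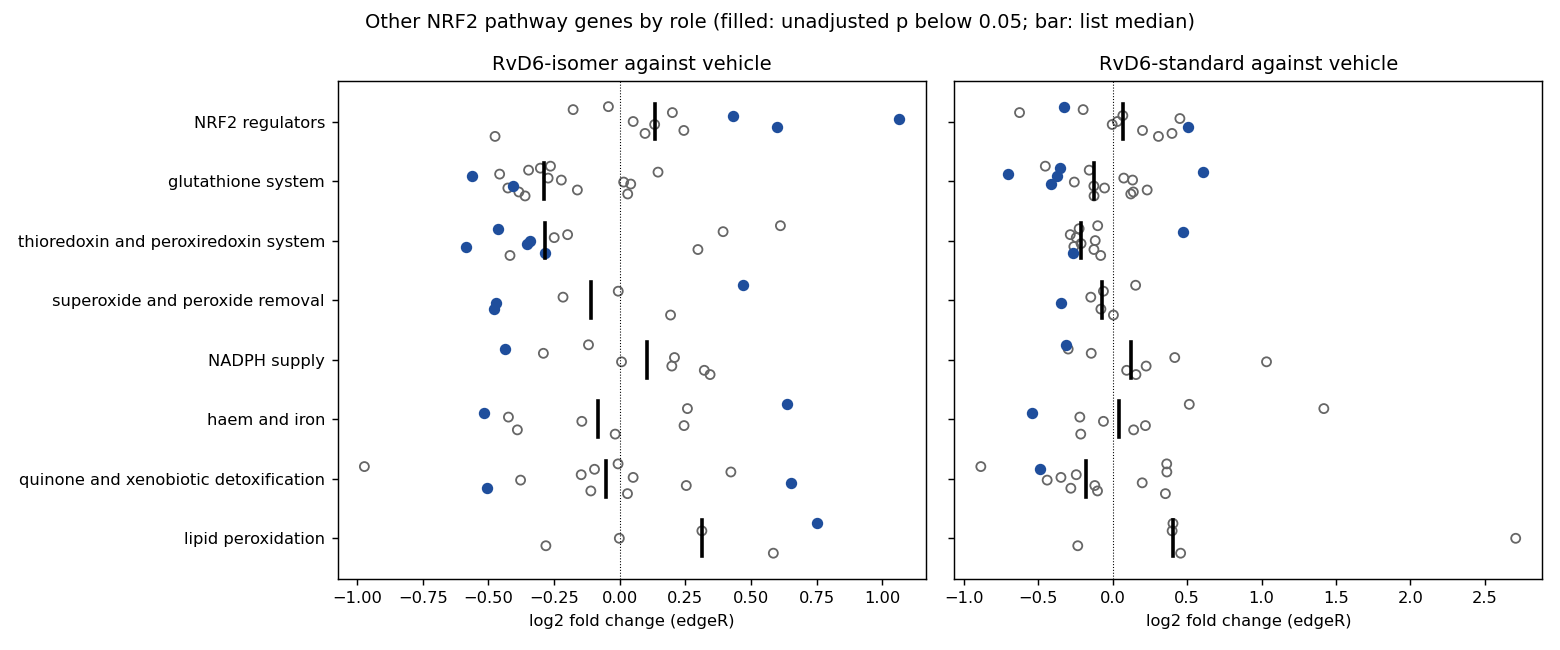
Log2 fold change of 77 pathway genes by role for each lipid against vehicle, with filled points for an unadjusted p below 0.05 and a bar at the median of each list. With RvD6-isomer most points of the glutathione and thioredoxin lists lie left of 0; 8 of 11 NRF2 regulators lie right of 0, but 5 of 11 with the trend on gene length removed.

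The thioredoxin and peroxiredoxin list stood lowest with RvD6-isomer together with the glutathione list. Of its 11 genes 8 had estimates below 0 with RvD6-isomer, with a list median of -0.29. An unadjusted p below 0.05 was found for 5, all lower, which is 45.5% beside 7.30% of all genes. These were the peroxiredoxins Prdx2 (-0.29), Prdx4 (-0.59), Prdx5 (-0.35) and Prdx6 (-0.34) and the mitochondrial thioredoxin reductase Txnrd2 (-0.46). The 3 genes with estimates above 0 were Prdx3, Txnrd3 and Txnip, none at an unadjusted p below 0.05 by edgeR. Their means with RvD6-isomer and vehicle were 131 and 106 CPM, 18.9 and 12.4 CPM, and 57.6 and 43.9 CPM. For Prdx3 4 of 5 RvD6-isomer samples lay above every vehicle sample, and for Txnrd3 and Txnip 3 of 5 did. After removal of the length trend, 8 of 11 estimates were again below 0 (median -0.26). However, 4 lower and 3 higher then had an unadjusted p below 0.05, or 36.4% and 27.3% beside 6.54% and 7.43% of all genes. Prdx4, which encodes the peroxiredoxin of the endoplasmic reticulum, measured 60.0, 60.2, 84.0, 60.7 and 74.1 CPM with vehicle and 45.7, 38.4, 52.1, 42.6 and 47.4 CPM with RvD6-isomer, so that the groups did not overlap. Its SE was 0.15 and its adjusted p 0.0642 by edgeR and 0.00306 by DESeq2. Prdx4 measured 58.1, 58.4, 63.1, 48.3 and 54.9 CPM with RvD6-standard, where 4 of 5 samples lay below every vehicle sample. With RvD6-standard 10 of the 11 estimates were below 0, with a median of -0.21. Of these, 1 (Prdx2, -0.26) had an unadjusted p below 0.05, or 9.09% of the list beside 5.99% of all genes. Txnip, which encodes an inhibitor of thioredoxin, was the exception at 0.47, with an unadjusted p of 0.0291. Erythroid cells are rich in PRDX2 protein, and all 10 erythroid markers had estimates above 0 with RvD6-standard, 8 of them at an unadjusted p below 0.05 and none after adjustment. The part of erythroid cells in the Prdx2 mRNA values was not tested.

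In the glutathione list 12 of 16 estimates were below 0 with RvD6-isomer (median -0.29). Of these, 2 had an unadjusted p below 0.05, or 12.5% of the list beside 7.30% of all genes. Gstm5, a glutathione S-transferase, measured 130.1, 159, 149, 160.1 and 160.0 CPM with vehicle and 76.0, 97.6, 106, 115 and 119 CPM with RvD6-isomer, with no overlap. Its log2 difference was -0.56 (SE 0.14), with an adjusted p of 0.0670 by edgeR and 0.00417 by DESeq2. Among genes with at least 10 counts in every sample, the adjusted p was 0.0463 by edgeR. Under that filter 1 of 72 pathway genes passed, beside 82 genes lower and 233 higher of all 12128. Gstm5 measured 132, 123, 132, 94.3 and 105 CPM with RvD6-standard, where 3 of 5 samples lay below every vehicle sample. Of the 16 estimates of the list, 10 were below 0 with RvD6-standard (median -0.13). An unadjusted p below 0.05 was found for 4 lower and 1 higher, or 25% and 6.25% beside 5.99% and 7.63% of all genes.

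In the list of NRF2 regulators 3 of 11 had an unadjusted p below 0.05 with RvD6-isomer, all higher, or 27.3% beside 8.69% of all genes. Estimates were above 0 for 8 of the 11 (median 0.13). This split depended on the scaling, since 5 were above and 6 below 0 (median -0.01) with the trend on gene length removed. At that threshold 2 were then higher and 1 lower, or 18.2% and 9.09% beside 7.43% and 6.54% of all genes. Mafk encodes a small MAF protein that pairs with NRF2, and also with the repressor BACH1. It measured 9.26, 5.22, 5.46, 10.7 and 7.34 CPM with vehicle, 10.2, 5.27, 4.68, 18.2 and 13.6 CPM with RvD6-standard, and 14.0, 12.9, 15.2, 20.7 and 16.8 CPM with RvD6-isomer. All 5 RvD6-isomer samples exceeded every vehicle sample, at a log2 difference of 1.06 (SE 0.35), with an adjusted p of 0.138 by edgeR and 0.0367 by DESeq2. The other regulators were Cul3, the ligase scaffold (0.60), and Nfe2l1, the related factor NRF1 (0.43). With RvD6-standard 7 of 11 were above 0 (median 0.07), and 4 of 11 (median -0.03) with the length trend removed. Without that removal 1 higher and 1 lower had an unadjusted p below 0.05, or 9.09% each beside 7.63% and 5.99% of all genes.

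Park7, in the superoxide and peroxide list, encodes DJ-1, a protein that protects against oxidative stress. It measured 310.0, 271, 300.1, 286 and 291 CPM with vehicle and 200.1, 208, 208, 215 and 221 CPM with RvD6-isomer, a log2 difference of -0.47 (SE 0.12) without overlap. Its adjusted p was 0.0781 by edgeR and 0.00512 by DESeq2. With RvD6-standard Park7 differed from vehicle by -0.35 (adjusted p = 0.230 by edgeR).

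Hmox2, the constitutive haem oxygenase, was low with both lipids. Its levels were 152, 129.6, 154, 129 and 147 CPM with vehicle, 114, 95.3, 117, 72.0 and 89.9 CPM with RvD6-standard, and 81.2, 94.4, 124, 114 and 83.8 CPM with RvD6-isomer. Every treated sample lay below every vehicle sample, as for the sum of the 6 satellite glia markers, of which 3 had estimates above 0 with each lipid. The part of satellite glia in the values of Hmox2, Prdx4, Gstm5 and Park7 was not tested. The log2 difference of Hmox2 from vehicle was -0.52 (SE 0.16) with RvD6-isomer, with an adjusted p of 0.110 by edgeR and 0.0221 by DESeq2. It was -0.55 (SE 0.16) with RvD6-standard, with 0.174 and 0.0429. In contrast to Hmox2, the inducible Hmox1 overlapped between all groups. Tkt, the transketolase of the pentose phosphate pathway, did not overlap between RvD6-standard and vehicle, at -0.31 (SE 0.14) and an adjusted p of 0.321 by edgeR. Its samples measured 314, 257, 332, 259 and 320.1 CPM against 343, 349.8, 345, 416 and 392 CPM.

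Of all 16567 genes, 8086 estimates were below 0 with RvD6-isomer and 7925 with RvD6-standard. Of the superoxide and peroxide list 4 of 6 estimates were below 0 with each lipid. At an unadjusted p below 0.05 by edgeR, 2 were lower and 1 higher with RvD6-isomer, or 33.3% and 16.7% beside 7.30% and 8.69% of all genes. Sod3 in that list averaged 43.7 CPM with RvD6-isomer against 31.5 CPM with vehicle, and 4 of 5 RvD6-isomer samples lay above every vehicle sample. The NADPH supply list had 5 of 8 above 0 with each lipid, and the haem and iron list had 5 of 8 below 0 with RvD6-isomer and 4 of 8 with RvD6-standard. The quinone and xenobiotic list had 7 of 12 and 8 of 12 below 0, respectively. At the same threshold the NADPH, haem and quinone lists each had 1 gene lower with each lipid. These are 12.5%, 12.5% and 8.33% of the lists, beside 7.30% of all genes with RvD6-isomer and 5.99% with RvD6-standard. The haem and quinone lists also had 1 gene each higher with RvD6-isomer, or 12.5% and 8.33% beside 8.69%. In the lipid peroxidation list, Ncoa4, the cargo receptor that delivers ferritin for breakdown, had a log2 difference of 0.75 with RvD6-isomer (adjusted p = 0.106 by edgeR and 0.0210 by DESeq2). Alox15 in that list had the largest estimate of the 77 genes with RvD6-standard, 2.71 (interval -0.33 to 5.75), on levels of 0.557 to 17.4 CPM against 0 to 2.92 CPM with vehicle, and its unadjusted p was 0.0776.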

How the data were processed

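Each sample was an adapted Smart-seq2 library from total RNA of a trigeminal ganglion. The deposited values are raw read counts per gene: the authors aligned reads with Rsubread to GRCm38 and counted exons of GENCODE genes with featureCounts (the file header names version 1.5.0-p1), without strand and without multi-mapping reads. A check of the table showed whole numbers in all 15 columns, each matched to a group by its label.

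Gene symbols came from GENCODE M21, which names 99.7% of the identifiers. Nnt matched 2 rows, of which the first was used. Promoters came from RefSeq (GRCm38.p6).

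Groups were compared with edgeR 4.0.16 (R 4.3.3, limma 3.58.1), by its quasi-likelihood F test, with 15 samples and 3 groups in one fit, TMM normalisation, the filter of edgeR (minimum count 10, minimum total 15) and Benjamini-Hochberg adjustment over all genes tested, at 0.05. SEs were the log2 fold change divided by the root of F, and intervals used 95%. CPM were computed with TMM library sizes, and divided by exonic length for levels between genes. Total counts ranged from 4125962 to 9903396 per sample.

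Named genes are the 10 genes, of the pathway lists those that passed the test and, for each lipid against vehicle, the 4 with the largest rise and the 4 with the largest drop among those with no overlap between the treated and the vehicle samples, and the 3 genes with the highest Spearman's rho with Nfe2l2 and with Hmox1. Prdx2, Prdx3, Prdx5, Prdx6, Txnrd2, Txnrd3, Txnip, Cul3, Nfe2l1, Sod3, Ncoa4 and Alox15 were named after their values were seen. The genes and lists were chosen with earlier results of these data known.

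Alternatives were DESeq2 1.42.0, only the groups compared, RLE normalisation, no filter, at least 10 counts in every sample, removal of the trend on gene length (lowess, span 0.3), and leaving out each sample. The script was tested on simulated data. Other steps used Python 3.11.15, pandas 2.3.3 and NumPy 2.4.6.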

Additional observations from a re-analysis of the deposited data

Results flagged for a closer look

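Txnrd1 in RvD6-isomer sample 11 measured 75.4 CPM, far from the other 4 samples of its group, which ran from 30.6 to 38.7 CPM. The gap to the nearest sample was 0.819 of the range of the group, above the critical value of Dixon's test for 5 samples (0.71). It was the only such value among 30 groups tested (10 genes in 3 groups), and chance alone marks about 1 in 20. The same sample held the lowest Gpx4 and Prdx1 values of the 15, at 88.2 and 211 CPM. The cause was not tested.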

How the results depend on the processing

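No paired analysis was possible because the labels number the samples 1 to 15 and no number is shared between groups. Of 630 values for the 10 genes under the alternatives, 602 kept their sign and their side of the threshold. In 27 an estimate that did not pass the test changed sign, and 1 passed the threshold (Prdx1, RvD6-isomer against vehicle, by DESeq2). Of the 27, 3 came from a setting other than a left-out sample, all in RvD6-isomer against RvD6-standard: Txnrd1 at 0.0080 and Gpx4 at 0.0025 with no filter, and Gpx4 at 0.016 with the length trend removed. The cause was not tested.

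With 1 sample left out, estimates for RvD6-isomer against vehicle ran from -0.035 to 0.10 (Gpx4), from -0.23 to 0.29 (Hmox1) and from -0.22 to 0.082 (Srxn1). For RvD6-standard against vehicle they ran from -0.16 to 0.017 (Prdx1) and from -0.0040 to 0.13 (Gpx4). Between the lipids they ran from -0.11 to 0.24 (Gclc), from -0.094 to 0.048 (Gpx4), from -0.23 to 0.033 (Nqo1), from -0.033 to 0.10 (Keap1) and from -0.36 to 0.14 (Txnrd1).

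For RvD6-isomer against vehicle, 111 genes passed the test in all; DESeq2 gave 920, at least 10 counts in every sample 315, the length trend removed 63, and left-out samples 0 (without RvD6-isomer sample 11) to 229 (without RvD6-standard sample 9). For RvD6-standard against vehicle the count of 0 became 369 with DESeq2, 38 with only the 2 groups, 56 with no filter, 24 with at least 10 counts in every sample, and 0 to 51 with left-out samples, the highest without RvD6-isomer sample 15. Between the lipids 39 became 185, 17, 59 and 23 in the same order, and 2 (without RvD6-isomer sample 11) to 156 (without RvD6-isomer sample 15). Of the 10 genes, DESeq2 called 1 for RvD6-isomer against vehicle, and none was called by edgeR in any of the left-out fits. Of the pathway lists, DESeq2 called 7 for RvD6-isomer and 1 for RvD6-standard against vehicle, and at least 10 counts in every sample gave 1 for RvD6-isomer. With left-out samples these counts ran from 0 to 2 for RvD6-isomer against vehicle and from 0 to 1 between the lipids. RLE normalisation changed no call among the 10 genes. Removal of the length trend moved several estimates for RvD6-isomer against vehicle. Nqo1 went from -0.30 to -0.11, Gclm from -0.15 to -0.29 and Keap1 from -0.17 to -0.28. Txnrd1 went from 0.37 to 0.22, Gpx4 from 0.03 to 0.20 and Hmox1 from 0.02 to 0.18.

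With 5 samples a group, the 95% intervals for RvD6-isomer against vehicle ran from -0.25 to 0.31 for Gpx4, which varied least of the 10 genes. They ran from -0.69 to 0.73 for Hmox1, which varied most. Differences within those bounds were not excluded, and the smallest difference that could have been detected was not computed.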

Other observations

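Over the 15 samples and 16566 other genes, the log2 CPM of Pon2 (Spearman's rho = 0.907), Rab9 (0.882) and Arhgef10 (0.879) followed that of Nfe2l2 most closely. Hebp1 (0.914), Irak2 (0.864) and Tacc3 (0.854) followed that of Hmox1. Pon2 encodes a paraoxonase that limits oxidative damage and Hebp1 a haem-binding protein. The values are the highest of a search over all genes tested, and samples of a group share their treatment and cell makeup, so they describe these libraries only.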
